A study of Mus musculus with 6 samples.

Results

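The genes described here encode voltage-gated potassium (Kv) channel subunits measured in the E13.5 mouse heart. They were found in the count table by their symbols, 9 of the 46983 genes listed. They comprise the Kv1 pore-forming (alpha) subunit genes Kcna1, Kcna2, Kcna4, Kcna5 and Kcna6, the Kv4 pore-forming subunit gene Kcnd3, and the cytoplasmic Kvbeta subunit genes Kcnab1, Kcnab2 and Kcnab3. The set was chosen by symbol with earlier mutant against wild type values of Kcna5 and Kcnab1 from the same hearts known, so the differences of its members between the groups are given as a description, without a test.

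RNA was sequenced from 6 whole hearts of C57BL/6 x DBA/2 embryos, 1 heart per library. The 3 mutant hearts (replicates 1, 5 and 10) carried TnnT2Cre and Wt1flox, and the 3 control hearts (replicates 2, 3 and 5) are labelled wild type. In full, the mutant genotype is Tnnt2 Cre/+; Wt1 flox/flox, and the methods give the controls both floxed Wt1 alleles too and no Cre. The groups thus differ by the Cre allele and by the recombination it drives. The Cre is expressed from the cardiac troponin T promoter, which is active in cardiomyocytes. The paper reports that this driver also recombines in a part of the epicardium, so the deletion is not limited to cardiomyocytes. Since every library holds a whole heart, fewer cells of a type and less RNA per cell cannot be told apart in any value below.

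A Kv channel is a tetramer of alpha subunits around one potassium-selective pore, which opens on depolarization and helps to repolarize the cell. In the heart, Kv1.5 (the product of Kcna5) is known for the ultrarapid delayed rectifier current of atrial myocytes, whereas Kv1.4 (Kcna4) and Kv4.3 (Kcnd3) carry transient outward currents that recover from inactivation slowly and fast, respectively. The Kvbeta proteins dock to the cytoplasmic face of Kv1 channels and share the fold of aldo-keto reductases. Kvbeta1 (Kcnab1) can close Kv1 channels by an inactivating N-terminal peptide, whereas Kvbeta2 (Kcnab2) lacks such a peptide and is known mainly for promoting assembly and surface delivery.

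Counts per heart totalled between 44244665 (wild type replicate 5) and 56373393 (wild type replicate 3). Wt1 itself stood at 20.9, 17.3 and 10.2 FPKM (fragments per kilobase of gene length, scaled to the library total) in wild type replicates 2, 3 and 5, and at 9.29, 17.2 and 17.4 FPKM in mutant replicates 1, 5 and 10. These ranges overlapped, and in whole hearts, where the epicardium contributes Wt1 RNA, the gene did not check the labels. The cardiomyocyte markers were abundant in every heart, led by Actc1 (cardiac alpha-actin) at a mean of 9530 FPKM. Wild type replicate 5 stood apart from the other hearts. In that heart the deviation of a gene from its mean over the hearts was lower the longer the gene (Spearman's rho of -0.556 across 11795 genes), whereas the other 5 hearts lay between -0.0622 and 0.464. Therefore the values of Kcna5 and Kcnab1 are given with and without that heart.

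Kcna5 and Kcnab1 were the members in which the groups did not overlap, and their promoter sequences are shown here for that reason. They are followed by the primers that the study used for Kcnab1 in quantitative PCR (qPCR). By qPCR the paper reports Kcnab1 as significantly upregulated in mutant E13.5 hearts, and those qPCR values are not used here. The windows are the 250 bases before a RefSeq transcript start (GRCm38.p6), read 5′ to 3′ on the gene's strand, and capitals mark matches to GNGGGNG on either strand, a loose guanine-rich motif of the kind that zinc fingers of the Wt1 type bind. For Kcna5 the window is chr6:126535556-126535805, on the minus strand. For Kcnab1 the RefSeq table holds 3 starts, all on the plus strand, and the windows shown are chr3:64948962-64949211 (start 1) and chr3:65108764-65109013 (start 2). Start 1 lies far upstream of the GENCODE M21 gene, which begins at chr3:65109384, whereas start 2 lies close to that position.
Kcna5: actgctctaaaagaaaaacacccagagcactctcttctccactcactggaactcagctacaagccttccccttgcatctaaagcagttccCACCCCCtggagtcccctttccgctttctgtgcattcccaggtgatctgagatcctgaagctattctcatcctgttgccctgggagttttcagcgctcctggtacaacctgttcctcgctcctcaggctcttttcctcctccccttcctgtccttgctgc
Kcnab1 start 1: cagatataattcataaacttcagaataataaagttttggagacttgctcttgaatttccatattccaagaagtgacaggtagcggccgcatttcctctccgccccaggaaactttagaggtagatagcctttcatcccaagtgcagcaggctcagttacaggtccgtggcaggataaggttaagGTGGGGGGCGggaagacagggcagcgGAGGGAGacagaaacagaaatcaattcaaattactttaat
Kcnab1 start 2: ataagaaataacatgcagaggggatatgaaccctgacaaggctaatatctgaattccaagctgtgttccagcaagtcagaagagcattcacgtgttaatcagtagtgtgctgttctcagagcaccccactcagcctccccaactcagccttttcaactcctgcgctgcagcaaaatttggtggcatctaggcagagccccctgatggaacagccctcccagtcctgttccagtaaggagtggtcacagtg
Kcnab1 forward primer: atcattgaaggactgaaagg
Kcnab1 reverse primer: gagtaggcttccatgatctc
The window of Kcna5 held 1 match, and those of Kcnab1 held 3 at start 1 and 0 at start 2 and at the third start (chr3:65187853-65188102). This motif is common, with a match in 60.3% of the 32851 windows in the table. The stricter motifs GCGNGGGCG and GCGTGGGAG, searched on both strands and present in 4.7% and 0.405% of all windows, had no match in any of the 11 windows found for 7 of the 9 members. A match or its absence here describes letters in a window and is no measure of binding. The primers bracket 194 bases of spliced RNA between chr3:65304154 and chr3:65357032 (GENCODE M21, GRCm38), from exon 7 to exon 10 of the 14 exons of the protein-coding transcript. They matched 5 of the 6 annotated transcripts of Kcnab1, with the retained-intron transcript as the exception, so the exons they read are common to nearly all annotated forms.

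Kcna5 lies on chromosome 6 (126532551 to 126535412, minus strand, GRCm38; ENSMUSG00000045534) as a gene with a single exon, in a cluster with Kcna1 (ENSMUSG00000047976) and Kcna6 (ENSMUSG00000038077), which lie within 173 kb of it, 61.9 kb from each other. Kcnab1 (ENSMUSG00000027827) spans chromosome 3 from 65109384 to 65378223 on the plus strand. Kcna2 (ENSMUSG00000040724) and Kcnd3 (ENSMUSG00000040896) also lie on chromosome 3, about 1430 kb from each other, and Kcnab2 (ENSMUSG00000028931) and Kcnab3 (ENSMUSG00000018470) lie on chromosomes 4 and 11. Kcna4 (ENSMUSG00000042604) is on chromosome 2, 2117 kb from Wt1.

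All 9 members passed the filter on low counts. Between members, levels were compared per length, in the deposited FPKM. In the wild type hearts, the highest levels were those of Kcna5, with a mean of 7.99 ± 0.628 FPKM (SD, n = 3), and Kcnab2, with 6.56 ± 1.08 FPKM, and the ranges of these genes overlapped. Kcna4 followed at 3.16 ± 0.204 FPKM, then Kcnd3 at 1.86 ± 0.0998 FPKM and Kcnab1 at 1.23 ± 0.418 FPKM, each outside the range of its neighbour. Kcna6 (0.679 ± 0.121 FPKM) and Kcnab3 (0.639 ± 0.078 FPKM) did not differ beyond their spread. Kcna1 (0.124 ± 0.0197 FPKM) and Kcna2 (0.0668 ± 0.05 FPKM) were lowest, with overlapping ranges. Even Kcna5 and Kcnab2 were moderate among all genes, at the 45.8th and 45.7th percentile of the mean FPKM over 6 hearts of the 17473 genes tested.

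In the mutant hearts the order by deposited FPKM differed at its upper end. Kcnab2 led at 6.05 ± 0.977 FPKM (SD, n = 3), Kcna5 was next at 4.72 ± 0.184 FPKM, and Kcnab1, at 2.8 ± 0.539 FPKM, overlapped Kcna4, at 3.33 ± 0.283 FPKM. Kcnd3 followed at 1.48 ± 0.403 FPKM, below the range of Kcnab1. The places of the lower members were unchanged, with Kcna6 at 0.625 ± 0.123, Kcnab3 at 0.56 ± 0.0167, Kcna1 at 0.0527 ± 0.0536 and Kcna2 at 0.0397 ± 0.0334 FPKM. The order depends on the gene length used, and so does the lead of Kcnab2 in the mutant hearts. The deposited FPKM divide the count of Kcnab2 by 1312 bases, whereas its annotated exons cover 5578 bases. With all annotated exon bases as the length, Kcna4 (1.69 FPKM) stood above Kcnab2 (1.54 FPKM), and Kcna6 (0.492 FPKM) and Kcnab3 (0.403 FPKM) above Kcnab1 (0.356 FPKM) in the wild type means, while Kcna5 kept 7.99 FPKM. In the mutant means on that length, Kcna5 led at 4.72 FPKM, followed by Kcna4 (1.78 FPKM) and Kcnab2 (1.42 FPKM), so Kcna5 was first in both groups.

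**Figure D1:**
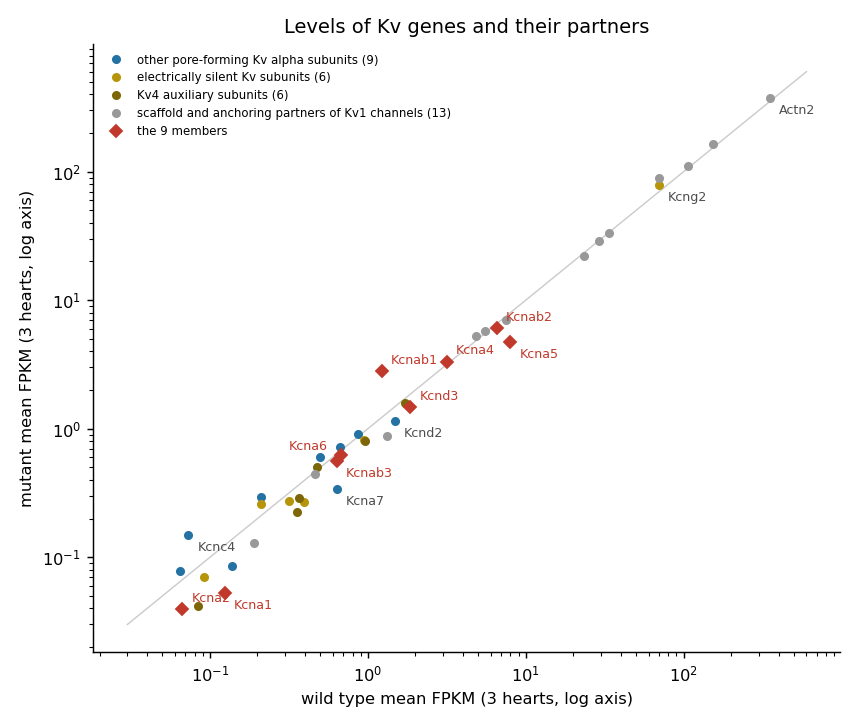
Mean deposited FPKM in the 3 mutant hearts (vertical, log axis) against the 3 wild type hearts (horizontal, log axis) for the 9 members (red diamonds) and the 34 partner genes tested, coloured by their role, with the line of equal levels. Kcnab1 lies above the line (1.23 and 2.8 FPKM) and Kcna5 below it (7.99 and 4.72 FPKM), and the silent subunit gene Kcng2 exceeds every member.

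Differences between the groups were described in CPM (CPM being counts scaled to a common library size by the TMM method), with log2 fold changes from a fit over all genes, positive where the mutant hearts were higher. Kcna5 stood at 24.6, 21.6 and 21.8 CPM in wild type replicates 2, 3 and 5, and at 13.7, 12.9 and 14.4 CPM in mutant replicates 1, 5 and 10. Every mutant heart was below every wild type heart, and the spread within each group was small (22.6 ± 1.68 against 13.7 ± 0.747 CPM, SD, n = 3). The log2 fold change was -0.73 (SE 0.11), a level 1.66-fold lower in the mutant hearts. Leaving out each heart in turn gave between -0.77 and -0.66, and -0.76 without wild type replicate 5.

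Kcnab1 showed the opposite order. Its level was 2.98, 2 and 4.14 CPM in wild type replicates 2, 3 and 5, and 5.33, 7.44 and 8.39 CPM in mutant replicates 1, 5 and 10. Here every mutant heart was above every wild type heart, but both groups were spread widely (3.04 ± 1.07 against 7.05 ± 1.56 CPM, SD, n = 3), with coefficients of variation of 35.2% and 22.2%. Counting error alone would give 8.03% and 5.25%, so most of that spread lay between hearts. The log2 fold change was 1.22 (SE 0.29), a level 2.33-fold higher in the mutant hearts, with a range from 0.99 to 1.5 when each heart was left out. The highest wild type value was that of replicate 5, and without that heart the log2 fold change was 1.5.

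Kcna4, the other abundant Kv1 alpha gene, differed little between the groups. It stood at 7.44, 8.28 and 8.52 CPM in the wild type hearts and at 7.85, 9.37 and 8.84 CPM in the mutant hearts, with overlapping ranges. The log2 fold change was 0.10 (SE 0.14). Thus the mutant hearts held less Kcna5 RNA in the presence of a similar amount of Kcna4 RNA.

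Kcna6, which encodes Kv1.6, a neuronal delayed rectifier subunit, stood at 2.95, 3.34 and 2.39 CPM in the wild type hearts and at 2.6, 3.22 and 2.31 CPM in the mutant hearts. The ranges overlapped nearly in full (log2 fold change -0.10, SE 0.23). This gene shares 39.6% of its exon bases with the antisense gene Gm26673, which held 0 counts in 5 hearts and 4 in mutant replicate 1. The strand setting of the counting is not given in the sources used here, so reads of Kcna6 on those bases are uncertain.

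Kcna1 and Kcna2, which encode the axonal delayed rectifier subunits Kv1.1 and Kv1.2, were near the limit of what this depth can measure. Kcna1 had 19, 21 and 12 counts in the wild type hearts and 4, 2 and 16 counts in mutant replicates 1, 5 and 10. The lowest of these, 2 counts, has an exact 95% Poisson interval from 0.242 to 7.22 counts, which covers counting error only. The groups overlapped through mutant replicate 10, and the log2 fold change of -1.17 (SE 0.70) ranged from -2.45 without that heart to -0.73 without another. Kcna2 had 12, 43 and 11 counts in the wild type hearts and 7, 25 and 6 in the mutant hearts. Wild type replicate 3 and mutant replicate 5 stood well above the other hearts of their groups, and the log2 fold change (-0.73, SE 0.71) ranged from -1.67 to 0.08 with a heart left out. For Kcna2 the coefficients of variation in FPKM were 74.9% in the wild type and 84.2% in the mutant hearts. Counting error alone would give 21.3% and 28.1%. For Kcna1 the spread exceeded counting error in the mutant hearts but not in the wild type hearts. A difference in either gene was thus not detectable in these hearts, given the low counts and the spread between hearts.

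Kcnd3 encodes Kv4.3. It stood at 6.13, 5.76 and 5.61 CPM in the wild type hearts and at 6.04, 4.22 and 3.93 CPM in mutant replicates 1, 5 and 10. The wild type hearts were close to each other (coefficient of variation 4.55%), whereas the mutant hearts were spread over 24.2%, with replicates 5 and 10 below the wild type range and replicate 1 inside it. The log2 fold change was -0.30 (SE 0.20), from -0.52 to -0.18 with each heart left out.

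The other Kvbeta genes did not share the pattern of Kcnab1. Kcnab2 stood at 8.35, 9.89 and 7.32 CPM in the wild type hearts and at 7.08, 7.15 and 9.94 CPM in the mutant hearts, with overlapping groups and a log2 fold change of -0.08 (SE 0.19). Kcnab3, whose product Kvbeta3 is found mainly in brain, stood at 1.24, 1.18 and 1 CPM in the wild type hearts and at 1, 0.973 and 1.09 CPM in the mutant hearts. These overlapped too, with a log2 fold change of -0.16 (SE 0.26).

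**Figure D2:**
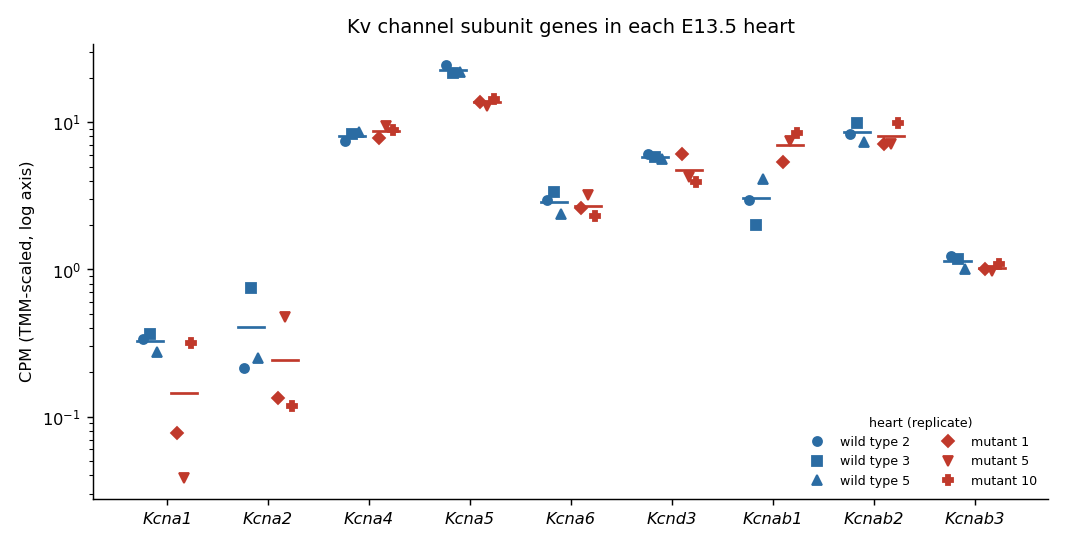
Level of each member in each heart in TMM-scaled CPM (log axis), with wild type hearts in blue, mutant hearts in red, a marker shape per heart and a bar at each group mean. The 3 mutant hearts lie below the 3 wild type hearts for Kcna5 (12.9 to 14.4 against 21.6 to 24.6 CPM) and above them for Kcnab1 (5.33 to 8.39 against 2 to 4.14 CPM), and the groups overlap for the other 7 genes.

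Counted over the set, the fold change was positive for 2 of the 9 members and negative for 7, with a median of -0.16, beside a median of -0.00 over all genes tested. The groups did not overlap for 2 of the 9 members. Over the 17473 genes tested the groups did not overlap for 1957, which is 11.2%. With edgeR's quasi-likelihood test and an adjusted p under 0.05, 0 members were called, as were 0 of 17473 genes (0%), the smallest adjusted p being 0.0991. At an unadjusted p under 0.05 the same test gave 2 members, Kcna5 and Kcnab1, beside 1002 genes in all (5.73%). DESeq2 called 2 members, again Kcna5 and Kcnab1, among 132 of 19493 genes (0.677%). Since the members were selected with this contrast known, nothing is read from these counts.

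**Figure D3:**
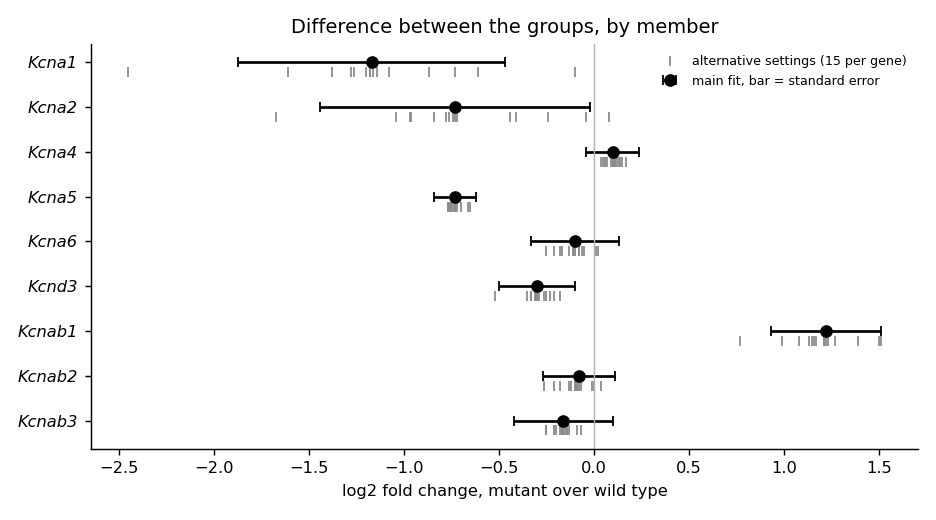
Log2 fold change of each member, mutant over wild type, with the standard error as a bar (black, fit over all genes) and the values under 15 alternative settings as grey ticks beneath. The alternatives stay on one side of 0 for Kcna5 (-0.77 to -0.65) and Kcnab1 (0.77 to 1.51), and cross 0 for Kcna2, Kcna6 and Kcnab2.

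Set against each other, the members gave a changed make-up of the Kv1 transcripts that belong to the set. These quantities are sums and ratios of deposited FPKM, they rest mainly on Kcna5 and Kcnab1, and they are descriptions like the values they are made of. The summed level of the 5 Kv1 alpha genes among the members was 12.5, 12 and 11.5 FPKM in the wild type hearts. In the mutant hearts it was 8.64, 9.01 and 8.64 FPKM, so the groups did not overlap. This sum leaves out other Kv1 alpha genes, such as Kcna7 (means of 0.636 FPKM in the wild type and 0.341 FPKM in the mutant hearts) and Kcna3 (0.211 and 0.295 FPKM). Kcna5 made up 69.7%, 64% and 65.5% of this sum in the wild type hearts and 56.5%, 50.2% and 55% in the mutant hearts. Kcna4 made up most of the rest, with 26.4% ± 2.63 (SD, n = 3) in the wild type and 37.9% ± 2.34 in the mutant hearts. The larger share of Kcna4 came with a lower sum and not with a clearly higher level of Kcna4 itself.

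The summed level of the 3 Kvbeta genes overlapped between the groups, at 8.37, 9.18 and 7.75 FPKM in the wild type hearts and 8.24, 9.03 and 10.9 FPKM in the mutant hearts. Within it, Kcnab1 made up 14.6%, 8.95% and 21.4% in the wild type hearts and 26.5%, 33.3% and 29.2% in the mutant hearts. Kcnab2 remained the main Kvbeta transcript by FPKM in all 6 hearts, with 77.5% ± 6.13 (SD, n = 3) and 64.3% ± 3.18. Kcnab1 per Kcna5, as a ratio of FPKM, was 0.14, 0.107 and 0.219 in the wild type hearts and 0.448, 0.666 and 0.673 in the mutant hearts. The Kvbeta sum per Kv1 alpha sum was 0.702 ± 0.0538 in the wild type hearts and 1.07 ± 0.169 in the mutant hearts. The ratio of Kcnd3 to Kcna4, a gene of fast and a gene of slow transient outward channels, overlapped between the groups (0.59 ± 0.0703 and 0.451 ± 0.151). Kcnd2, another Kv4 gene, is described below and is not part of this ratio. The shares depend on the lengths behind the FPKM. With all annotated exon bases as the length, Kcna5 made up 77.7% ± 2.25 of the Kv1 alpha sum in the wild type and 67.4% ± 3 in the mutant hearts, Kcnab2 made up 66.8% ± 6.11 and 55% ± 2.99 of the Kvbeta sum, and the Kvbeta sum per Kv1 alpha sum was 0.224 ± 0.0164 and 0.369 ± 0.0536 (SD, n = 3), each again without overlap.

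**Figure D4:**
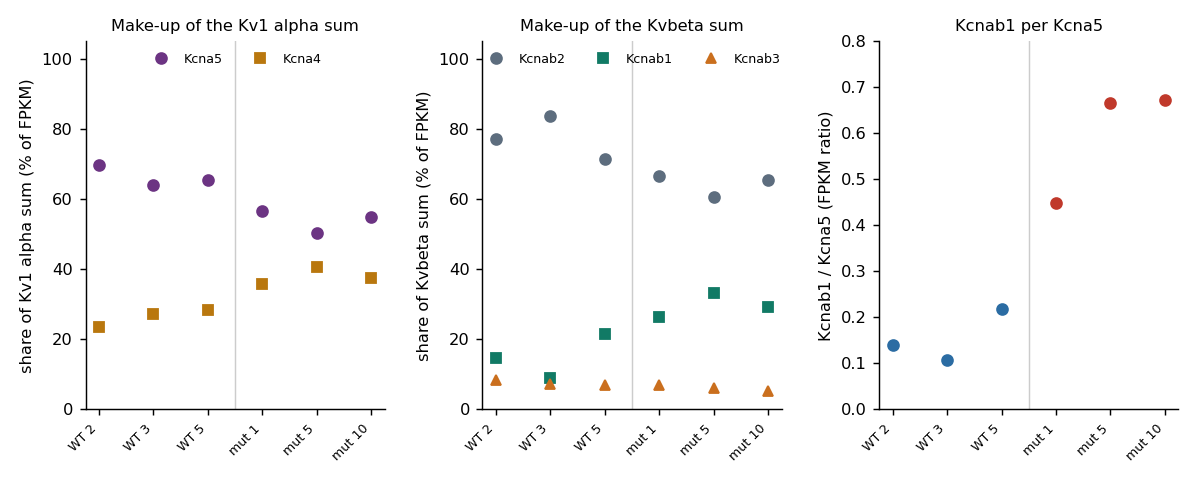
Share of Kcna5 and Kcna4 in the summed FPKM of 5 Kv1 alpha genes (left), share of each Kvbeta gene in the summed FPKM of 3 Kvbeta genes (middle), and ratio of Kcnab1 to Kcna5 FPKM (right), with 1 point per heart. Kcna5 takes 64% to 69.7% of the Kv1 alpha sum in wild type and 50.2% to 56.5% in mutant hearts, and the Kcnab1 to Kcna5 ratio is 0.107 to 0.219 and 0.448 to 0.673.

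The other genes of the pathway were taken from 4 lists by function, 41 genes in all, of which 34 were tested. In the edgeR fit none of them reached an adjusted p under 0.05, whereas 3 (Kcna7, Kcnc4 and Adam23) were below 0.05 before adjustment, and DESeq2 called 0 of 36. The fold changes were split evenly, with 17 positive and 17 negative and a median of -0.01. The groups did not overlap for 3 of the 34 (8.82%, beside 11.2% of all genes tested).

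Among the 9 other pore-forming alpha genes tested, Kcna7 had the smallest p. Kcna7 encodes Kv1.7, another Kv1 subunit of striated muscle, and held 150, 119 and 82 counts in the wild type and 70, 56 and 60 in the mutant hearts, with no overlap. Its log2 fold change was -0.87 (SE 0.25, adjusted p = 0.640 by edgeR's quasi-likelihood test). The other genes of the lists without overlap, named after their values were seen, were Kcnd2 and Kcnc4. Kcnd2, which encodes Kv4.2, stood at 1.67, 1.34 and 1.42 FPKM in the wild type and 1.23, 1.1 and 1.12 FPKM in the mutant hearts (log2 fold change -0.33, SE 0.15, edgeR adjusted p = 0.896). Kcnc4 (Kv3.4) held 22, 14 and 7 counts in the wild type and 34, 25 and 27 in the mutant hearts (log2 fold change 1.05, SE 0.43, edgeR adjusted p = 0.847). Kcna10 was listed at 0 counts in every heart.

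Of the members and the listed partner Kv genes, the one with the highest level was not a pore-forming one. Kcng2 encodes the electrically silent subunit Kv6.2, which forms no channel of its own and modifies Kv2 channels when it joins them. It stood at 64, 68.3 and 77.7 FPKM in the wild type and 72.5, 76.2 and 86.4 FPKM in the mutant hearts, more than any member in every heart. The groups overlapped (log2 fold change 0.19, SE 0.13, edgeR adjusted p = 0.972). Of the 6 silent subunit genes tested, Kcnf1 (Kv5.1) had the smallest p, with 116, 121 and 62 counts in the wild type and 76, 74 and 51 in the mutant hearts (log2 fold change -0.52, SE 0.28, edgeR adjusted p = 0.939).

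Among the auxiliary subunits of Kv4 channels, Kcnip3 (1.64 FPKM) and Dpp6 (0.883 FPKM) had the highest means over the 6 hearts. Both were named after their values were seen, and both overlapped between the groups. Kcnip3 was close to Kcnd3 (1.67 FPKM over the 6 hearts). It stood below Kcnd3 in the wild type means (1.71 against 1.86 FPKM) and above it in the mutant means (1.58 against 1.48 FPKM). This order too depends on the gene length, as Kcnd3 had 0.553 FPKM with all annotated exon bases. Kcnip2 (KChIP2), which increases the surface density of Kv4 channels in the adult ventricle, held between 16 and 43 counts in the 6 hearts, with overlapping groups (log2 fold change 0.11, SE 0.47; it was chosen after its values were seen). Dpp10, a dipeptidyl-peptidase-like subunit, had the smallest p of its list, with 25, 14 and 27 counts in the wild type and 9, 9 and 16 in the mutant hearts (log2 fold change -0.96, SE 0.50, edgeR adjusted p = 0.939). The fold change was negative for 5 of the 6 genes of this list, with a median of -0.27.

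Of the scaffold and anchoring partners of Kv1 channels, 13 of 14 were tested, with 8 positive and 5 negative fold changes and a median of 0.03. The most abundant were Actn2 (alpha-actinin 2, the Z-disc protein that binds Kv1.5), at 352 FPKM in the wild type and 375 FPKM in the mutant mean, and Cttn (cortactin), at 153 and 163 FPKM. Fhl1 (106 and 111 FPKM), Pias3 (23.5 and 21.9 FPKM) and the membrane-associated guanylate kinase genes Dlg1 (33.5 and 33.6 FPKM), Dlg2 (4.86 and 5.29 FPKM), Dlg3 (7.46 and 6.95 FPKM) and Dlg4 (29.3 and 29 FPKM) overlapped between the groups. Adam22 did as well (5.52 and 5.78 FPKM). Cav3, the muscle caveolin, had means of 70.2 and 88.8 FPKM, again with overlap (log2 fold change 0.37, SE 0.19, edgeR adjusted p = 0.939). The smallest p of this list belonged to Adam23, with 270, 265 and 158 counts in the wild type and 135, 193 and 127 in the mutant hearts (log2 fold change -0.56, SE 0.23, edgeR adjusted p = 0.842).

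The genes most like Kcna5 and Kcnab1 across hearts were sought among 14155 genes with a mean of at least 1 CPM, by Pearson's r of log2 CPM over the 6 hearts. With 6 points from 2 groups, r includes the group difference, and the genes named are the extremes of many compared. A high r is therefore given as a description. For Kcna5 they were Fbxo5 (an inhibitor of the anaphase-promoting complex, r = 0.993), Dact2 (r = 0.991) and Sncg (gamma-synuclein, r = 0.988). Dact2, a gene of the Dapper family, stood at 13, 10.7 and 11.5 CPM in the wild type and 7.18, 6.09 and 6.84 CPM in the mutant hearts. In all, 32 genes had r above 0.95 with Kcna5 and 51 had a negative r as strong.

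For Kcnab1 the most alike were Grsf1 (a mitochondrial RNA-binding protein, r = 0.997), Itga2b (the platelet integrin alpha-IIb, r = 0.992) and Fchsd1 (r = 0.992). Grsf1 spanned only 142 to 155 CPM over all hearts, so its likeness is one of order and not of size. Itga2b stood at 12.1, 10.1 and 14 CPM in the wild type and 14.7, 18.4 and 18.4 CPM in the mutant hearts. The gene most opposite to Kcnab1 was Tbx3, a transcription factor of the conduction system (r = -0.993), at 18.3, 22.1 and 16.4 CPM in the wild type and 15.3, 12.4 and 11.7 CPM in the mutant hearts. After each group's mean was subtracted, other genes led. They were Lppr1 (r = 0.998), Maz (r = 0.985) and Pias4 (r = 0.985) for Kcna5, and Asrgl1 (r = 0.996), Nudt16l1 (r = 0.995) and Kdelc1 (r = 0.995) for Kcnab1, each over the same 6 hearts. Genes with r above 0.95 then numbered 31 for Kcna5, beside 32 before, and 72 for Kcnab1, beside 37 before. These too are extremes among many genes and descriptions only.

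Markers of the cell types that a whole heart holds were summed in CPM per heart and set beside Kcna5 and Kcnab1, and edgeR called no gene of these lists at an adjusted p under 0.05. The product of Kcna5 is known for a current of atrial myocytes, but whole hearts do not show which chamber the Kcna5 RNA came from. The summed atrial markers ranged from 4320 to 5710 CPM in the wild type and from 3990 to 5200 CPM in the mutant hearts, with overlap. Their ratio of means on the log2 scale was -0.13, against -0.73 for Kcna5. Such a sum weighs abundant genes most. Here these were Myl4, with means of 2820 FPKM in wild type and 2800 FPKM in mutant hearts, and Myl7, with 2450 and 1720 FPKM. Of the 10 atrial markers, 8 had a negative fold change and 2 a positive one, with a median of -0.36, and Myl4 led by level (mean 2810 FPKM). The COUP-TF gene Nr2f1 had a log2 fold change of -1.0 and means of 22 and 10.9 FPKM without overlap, and that of Nr2f2 was -0.35, also without overlap, whereas Bmp10 (0.40) was higher in every mutant heart. Myl7, Nr2f1, Nr2f2, Bmp10 and the markers named below beside the leader of their list were picked after their values were seen. The sum of the ventricular markers, led by Myl2 (mean 7870 FPKM), was higher in every mutant heart (10900 to 12700 against 9320 to 10300 CPM, 0.24 on the log2 scale). All 5 had a positive fold change, but only Irx4 was higher in every mutant heart when taken alone, and Myl2 overlapped. The sum of the sinus venosus and sinus node markers was lower in every mutant heart (192 to 209 against 240 to 247 CPM, -0.30 on the log2 scale). Of these 8 markers, 6 had a negative and 2 (Hcn4, 0.08, and Smoc2, 0.20) a positive fold change, and 4 (Shox2, Tbx3, Isl1 and Vsnl1) were lower without overlap, whereas Tbx18, the most abundant (mean 23.6 FPKM), overlapped. Thus the sinus venosus sum differed in the direction of Kcna5 and the ventricular sum in the opposite one, and the part of either in the difference of Kcna5 was not tested. The cardiomyocyte markers as a whole overlapped between the groups (16800 to 22300 against 20400 to 22700 CPM).

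Of the non-muscle lists, the platelet and macrophage sums were higher in every mutant heart, as Kcnab1 was, and the other sums overlapped. The ventricular muscle sum was higher in every mutant heart too. Markers of megakaryocytes and platelets, led by Pf4 (platelet factor, mean 23.8 FPKM), summed to 23 to 34.3 CPM in the wild type and 37.9 to 53.9 CPM in the mutant hearts, 0.77 on the log2 scale, with positive fold changes for 7 of 7 genes. Those of macrophages, led by the complement gene C1qb (mean 22.1 FPKM), summed to 82.2 to 94.9 CPM in the wild type and 126 to 139 CPM in the mutant hearts, 0.53 on the log2 scale, with positive fold changes for 7 of 8 genes tested. Among the wild type hearts, replicate 5 was highest and replicate 3 lowest in both Kcnab1 and the platelet sum. Among the mutant hearts, replicate 10 was highest in Kcnab1 and replicate 5 in the platelet sum (53.9 against 50.7 CPM), and the macrophage sum was lowest in wild type replicate 2. The fibroblast and cushion markers, led by Col3a1 (mean 548 FPKM), summed to 2130 to 3080 CPM and 3060 to 4360 CPM, and the endothelial and endocardial markers, led by Pecam1 (mean 65.6 FPKM), to 675 to 1050 CPM and 910 to 1180 CPM, with overlap in both. The part of these cell types in the difference of Kcnab1 was not tested.

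Several Kv genes are known from neurons and glia, and markers of both were present at low levels. The neuronal markers, led by Tubb3 (mean 5.8 FPKM), summed to 21.8 to 27.8 CPM in the wild type and 22.2 to 26.2 CPM in the mutant hearts, and 3 of the 10 genes tested had a positive fold change. The Schwann cell and glia markers, led by Erbb3 (mean 3.7 FPKM), summed to 28.9 to 35.9 CPM and 25.3 to 30.6 CPM, with a positive fold change in 1 of 7. Both overlapped between the groups, as did the epicardial markers, led by Upk3b (mean 42.4 FPKM, sums of 183 to 394 and 236 to 463 CPM), and the smooth muscle markers, led by Acta2 (mean 465 FPKM, sums of 1490 to 1650 and 1480 to 1700 CPM). The erythroid markers, led by Hbb-y (mean 18500 FPKM), ranged widely within both groups (12300 to 32300 and 10800 to 35600 CPM). No marker of any list was at 0 in all hearts.

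**Figure D5:**
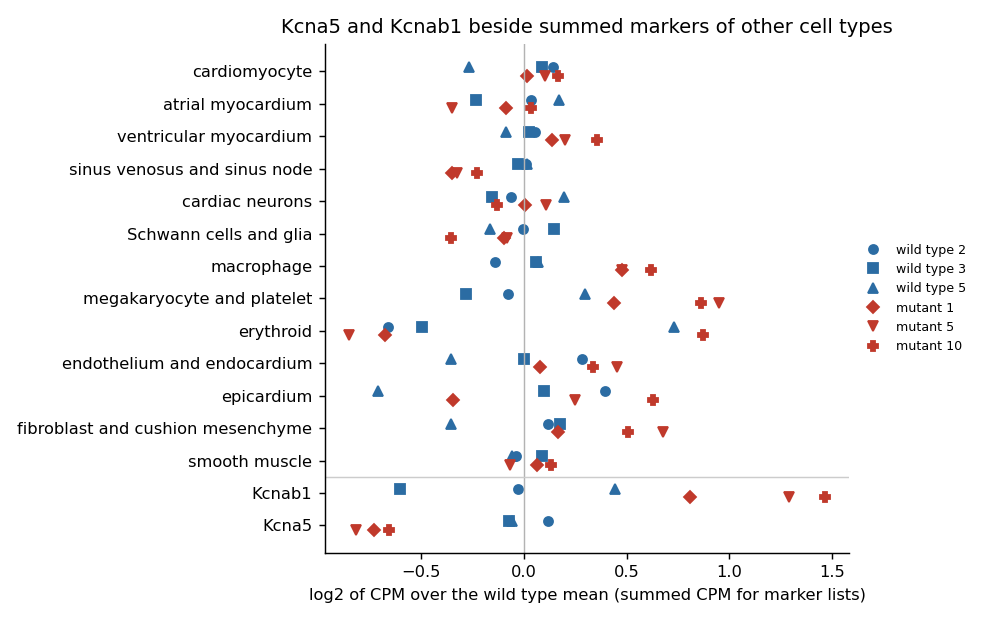
Summed CPM of each marker list, and CPM of Kcnab1 and Kcna5, in each heart as log2 of the ratio to the wild type mean, with wild type hearts in blue and mutant hearts in red. The mutant hearts lie apart from the wild type hearts for the ventricular, macrophage and platelet sums (higher) and the sinus venosus and sinus node sum (lower), as they do for Kcnab1 (higher) and Kcna5 (lower).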

How the data were processed

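RNA of 6 whole E13.5 hearts, 1 per library, was extracted with the RNAqueous-Micro kit, and TruSeq libraries were read as pairs. According to the study's methods, the authors trimmed the reads with Trim Galore, aligned them with STAR to the mm10 mouse genome and assigned uniquely mapped reads to GENCODE M19 genes with featureCounts. The submitters' processing notes name HTSeq and DESeq2. The strand setting is not given in the sources used here. The deposited count of each gene is not normalized. The deposited FPKM equal the count over the heart's total and over 1 length that is the same in all hearts, within a relative deviation of 6.13e-14, and a further deposited table holds the authors' group means of the FPKM. Of the 46983 genes, all named, 46488 were matched to GENCODE M21 for positions.

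Counts were normalized by TMM and tested by edgeR's quasi-likelihood test (edgeR 4.0.16, R 4.3.3; filterByExpr defaults of min.count 10 and min.total.count 15; two-sided, without covariates; Benjamini-Hochberg adjusted p under 0.05 over 17473 genes). A standard error is the log2 fold change divided by the square root of its F statistic. The p-values measure the spread between hearts of separate embryos. DESeq2 1.42.0, limma 3.58.1, other filters and scalings, length offsets and each heart left out served as alternatives. Levels and shares on lengths covering all annotated exon bases were added after seeing the data. The scripts were tested on simulated data. Intervals are exact Poisson intervals of single counts, so they cover counting error only. Reads carry no molecular identifiers, and extra spread from duplicate reads is not covered either.

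The members, the lists of partner genes and markers, and the tests were chosen with earlier results of these data known. Named were all members, from each partner list the genes past the threshold, those with a mean of at least 5 FPKM over the 6 hearts and the gene with the smallest p, the 3 most similar genes and the most opposite gene of Kcna5 and Kcnab1, and the marker with the highest FPKM of each list. One gene that this rule names is not reported here. Genes outside this rule are said to be chosen after their values were seen, or are markers described with their list. Promoter windows are from RefSeq (GRCm38.p6), cut to the 250 bases before the start.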

Additional observations from a re-analysis of the deposited data

How the results depend on the processing

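No paired analysis was possible because the groups share only replicate number 5, and nothing ties hearts of that number to each other. The number of genes called over the whole table was 0 with edgeR's quasi-likelihood test and moved with the setting: 132 with DESeq2, 34 without a filter on low counts, 6 with gene length offsets, 42 with these offsets and without wild type replicate 5, and 0 to 44 with each heart left out (44 without wild type replicate 5). Of the members, 0 were called by edgeR, 2 (Kcna5 and Kcnab1) by DESeq2, 1 (Kcna5) with length offsets and without wild type replicate 5, and 0 to 1 with each heart left out (Kcna5, without wild type replicate 5). No partner gene was called under any of the alternatives run. For the members' log2 fold changes the yardstick was each gene's own SD of log2 CPM between hearts of the same group, so widely spread genes pass easily. By it even Kcna2 at 0.08 without wild type replicate 3, against -0.73, counted as within 1 SD. Of 135 log2 fold changes of the members under alternatives, 131 stayed within 1 SD of the value given. The others were those of Kcna1 (-0.10 on log2(FPKM + 1), -2.45 without mutant replicate 10), Kcna2 (-1.67 without mutant replicate 5) and Kcnab1 (0.77 on log2(FPKM + 1), a scale that understates changes of low genes). With all annotated exon bases as length, the mean FPKM over the 6 hearts of Kcnab2 was 1.48 and that of Kcna4 1.73, and Kcna5 led in both groups. Low counts and the spread between hearts limit what can be said of Kcna1 and Kcna2, with 43 counts or fewer in every heart.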

Other observations

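Across the 6 hearts, the members' log2 CPM gave Pearson's r of -0.83 between Kcna5 and Kcnab1, -0.85 between Kcna4 and Kcnd3, 0.84 between Kcna2 and Kcna6 and 0.77 between Kcna5 and Kcna1, as descriptions over the same hearts, in which the group difference and the gene length trend of wild type replicate 5 are included. The antisense gene A330015K06Rik, which shares 2.34% of the exon bases of Kcnab1, had 2 counts in wild type replicate 5 and none in the other wild type hearts, and between 3 and 7 counts in each mutant heart. Kcnab2 shares 2.24% of its exon bases with Gm16334, which was listed at 0 counts in every heart.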
